A study of Homo sapiens with 4 samples.

Results

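Antisense lncRNA genes are annotated genes of long non-coding RNAs that carry the name of a neighbouring gene followed by AS, because they are read from the opposite DNA strand near or across that gene, called the sense gene here. Of 7988 annotated lncRNA genes in the expression table, 825 had such a name, after leaving out those of the HOX clusters and CDKN2B-AS1. The 430 of these whose summed expression reached 1 FPKM in any library were taken as the antisense lncRNA genes described here, with 1283 annotated transcripts among them. FPKM is sequenced fragments scaled to transcript length and to the size of the library, summed over the annotated transcripts of a gene. The measured level itself therefore chose the genes, which were selected on their highest FPKM over the 4 libraries. Just inside the limit, RASSF1-AS1 reached 1.005 FPKM in HCC827 and SMIM2-AS1 1.01 in A549, and just outside it STX18-AS1 reached 0.9995 in A549/DDP and FOCAD-AS1 0.987.

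The study compared drug-resistant non-small-cell lung cancer (NSCLC) cell lines with their parents by RNA sequencing after ribosomal RNA depletion. A549 and HCC827 are human lung adenocarcinoma lines. A549/DDP was made from A549 by rising doses of cisplatin, a drug that crosslinks DNA, and HCC827/GR was made from HCC827 by rising doses of gefitinib, an inhibitor of the EGFR kinase, with each drug withdrawn a week before RNA was taken. The sample labels name the resistant lines A549/R and HCC827/R and call each of them resistant to cisplatin, so the labels and the methods of the study disagree on the drug of HCC827/GR, and the drug of the methods is used here. Each of the 4 conditions was 1 library of 1 resistant or parental line. The spread between replicates is therefore unknown, no p-value is given, and each difference below lies between single libraries. In such bulk samples, fewer cells that make an RNA and less of that RNA per cell cannot be told apart. The libraries held 4.34, 4.62, 5.24 and 4.45 gigabases of aligned sequence in the order A549, A549/DDP, HCC827 and HCC827/GR, and wherever 4 values follow each other below they keep that order. The identity of the lines could be checked only on the circRNA table, where the epithelial genes KRT7 and EGFR hosted circRNAs in all 4 libraries. The other 5 epithelial markers fixed for the check, among them EPCAM and CDH1, and the 6 markers of blood, vessel and stromal cells hosted none.

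Antisense lncRNAs act in several known ways. Some share a promoter region with the sense gene and are transcribed away from it, some cover its exons and can pair with its mRNA, and some serve elsewhere in the cell, as hosts of small nucleolar RNAs or as RNAs that bind microRNAs or chromatin proteins. In tumours, AFAP1-AS1, FEZF1-AS1, EGFR-AS1, OIP5-AS1 and others have been studied as RNAs linked to growth or drug response. Whether the sequencing kept the strand of the RNA is not stated. Where an antisense gene overlaps its sense gene, it is therefore unknown how well reads of the pair were told apart. Each level below is that of the locus as assembled.

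The promoter sequences of 3 genes are shown, and no call below rests on these sequences. PXN-AS1, AGAP2-AS1 and ZNF674-AS1 were the genes called higher in both resistant lines. They were 1.40% of the 215 genes compared, beside 3.13% of all annotated lncRNA genes compared. Each sequence is the RefSeq window on GRCh38.p14 from 250 bases before to 50 bases after the annotated start, 300 bases in all, read 5′ to 3′ on the strand of the lncRNA. Capitals mark a CCAAT box (CCAAT), a GC box (GGGCGG) or a TATA box (TATAAA), each searched on both strands.
PXN-AS1, chr12:120201041-120201340, plus strand: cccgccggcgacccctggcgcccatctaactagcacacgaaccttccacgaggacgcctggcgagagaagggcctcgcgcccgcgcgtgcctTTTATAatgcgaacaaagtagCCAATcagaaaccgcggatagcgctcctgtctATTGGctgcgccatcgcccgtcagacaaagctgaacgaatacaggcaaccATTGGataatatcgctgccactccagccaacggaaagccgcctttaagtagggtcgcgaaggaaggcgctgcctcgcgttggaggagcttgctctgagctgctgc
AGAP2-AS1, chr12:57725990-57726289, plus strand: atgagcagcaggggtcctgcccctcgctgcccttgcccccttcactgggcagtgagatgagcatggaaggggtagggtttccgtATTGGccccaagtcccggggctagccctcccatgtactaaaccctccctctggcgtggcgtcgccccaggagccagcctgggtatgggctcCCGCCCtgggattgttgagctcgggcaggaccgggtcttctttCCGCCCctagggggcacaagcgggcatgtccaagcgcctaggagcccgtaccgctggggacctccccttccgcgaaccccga
ZNF674-AS1, chrX:46545240-46545539, plus strand: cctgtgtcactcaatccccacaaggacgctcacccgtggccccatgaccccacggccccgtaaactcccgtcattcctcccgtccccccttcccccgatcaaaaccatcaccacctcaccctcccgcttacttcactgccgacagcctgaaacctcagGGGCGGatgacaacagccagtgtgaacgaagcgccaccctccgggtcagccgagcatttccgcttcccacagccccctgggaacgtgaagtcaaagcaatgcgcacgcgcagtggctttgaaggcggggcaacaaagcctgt
The PXN-AS1 window held 3 CCAAT boxes and 1 TATA box, the AGAP2-AS1 window 1 CCAAT box and 2 GC boxes and the ZNF674-AS1 window 1 GC box. A match describes the letters and does not show a bound site. Of the first windows of 27305 genes in the table, 35.7% held a CCAAT box, 44.6% a GC box and 12.0% a TATA box.

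The windows also place these genes among their neighbours. The start of PXN-AS1 lay 180 bp from that of RPLP0, a gene of the large ribosomal subunit on the other strand that is read away from it, and 48872 bp from the start of its name partner PXN, which encodes the focal adhesion protein paxillin. ZNF674-AS1 started 69 bp from ZNF674, a zinc finger gene read in the opposite direction. AGAP2-AS1 started inside the span of AGAP2, a GTPase regulator, 12502 bp from its start.

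Of the 430 genes, 414 were found in RefSeq by symbol or unique synonym, 413 of them at the same place, and 71 under another symbol. In 43 cases that symbol ended in DT, the RefSeq name for a transcript divergent from its neighbour. For 279 genes the antisense and the sense start were both listed, and all 279 pairs lay on opposite strands. In 111 pairs the genes diverged and in 168 they converged, that is, were read toward or through each other. The starts lay within 1000 bp in 138 pairs, 96 of them diverging, and 130 further pairs overlapped with starts more distant. Of 316 antisense genes with a listed start, 57.0% had a protein-coding start of the other strand within 1000 bp, beside 17.8% of all 11462 RefSeq lncRNA genes with a listed start. The name is given for such a position, so the opposite strands and this contrast are tied to the choice of genes. The RefSeq lncRNA genes were also not required to reach 1 FPKM. Of 316 RefSeq starts, 303 lay within 1000 bp of the start of a measured transcript and 13 did not, CYP1B1-AS1 among these. For 43 of the 180 genes the near start belonged to a gene other than the one in the name, although in 7 of the 43 the named gene had no listed start. Examples with both starts listed were PXN-AS1 and RPLP0, FGD5-AS1 and NR2C2, and PITPNA-AS1 and INPP5K.

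**Figure D1:**
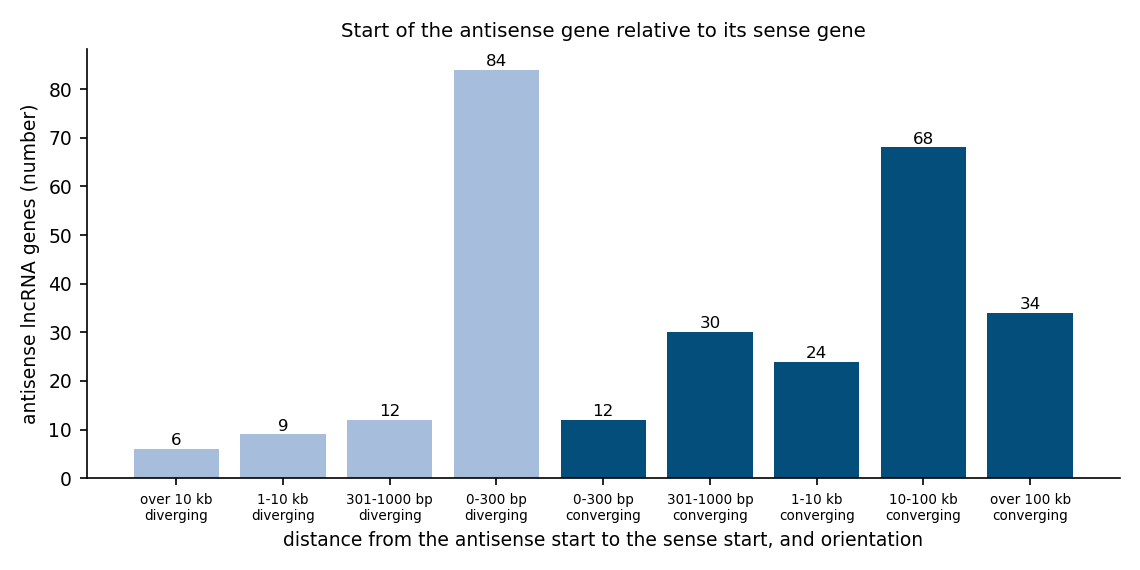
Bars give the number of antisense lncRNA genes (y axis) by the distance between the antisense and the sense start and by orientation (x axis), for the 279 pairs with both starts in RefSeq. The tallest bar is that of 84 diverging pairs with starts up to 300 bp apart, and a second group of 68 converging pairs has starts 10 to 100 kb apart.

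The promoter windows of the antisense genes had a median GC content of 62.7% and a ratio of observed to expected CpG of 0.739. The same values were 50.0% and 0.283 over all RefSeq lncRNA genes and 62.7% and 0.763 over protein-coding genes. A GC box was found in 53.8% of antisense windows, beside 25.4% of all lncRNA windows and 58.5% of protein-coding windows. A TATA box was found in 8.86%, 15.2% and 9.63%, and a CCAAT box in 31.0%, 34.8% and 36.4%, in the same order. These contrasts carry the same limit, since the antisense genes were chosen by name and level and the RefSeq sets were not. In gene structure, 34 of the 430 genes had a single exon, or 7.91%, beside 26.2% of the 3252 annotated lncRNA genes at 1 FPKM or more. The median longest transcript was 1731 bases long, beside 883 bases over those 3252 genes.

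Most antisense lncRNAs were present at low levels. The median over the 430 genes was 1.20, 1.004, 1.67 and 0 FPKM. At 1 FPKM or more were 245, 215, 306 and 180 genes in the same order, and 80 genes in all 4 libraries. HCC827/GR stood apart, since 223 of the 430 genes, or 51.9%, were listed at 0 there, beside 31, 52 and 47 in the others. It also had the most genes at 10 FPKM or more, 45 beside 14, 21 and 28. The genes above 0 in HCC827/GR rested on a median of 96.5 read pairs, beside 22.9, 21.3 and 39.5 in the others, where a read pair is 302 bases of coverage. Of 277 genes with 20 read pairs or more in HCC827, 125 were listed at 0 in HCC827/GR. Of 214 such genes in A549, 5 were listed at 0 in A549/DDP. Over all annotated lncRNA genes the counts were 1002 of 1947 and 67 of 1252. The part of assembly and estimation in these zeros was not tested, so a log2 change of a gene listed at 0 rests on the 1 FPKM added and gives no fold.

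**Figure D2:**
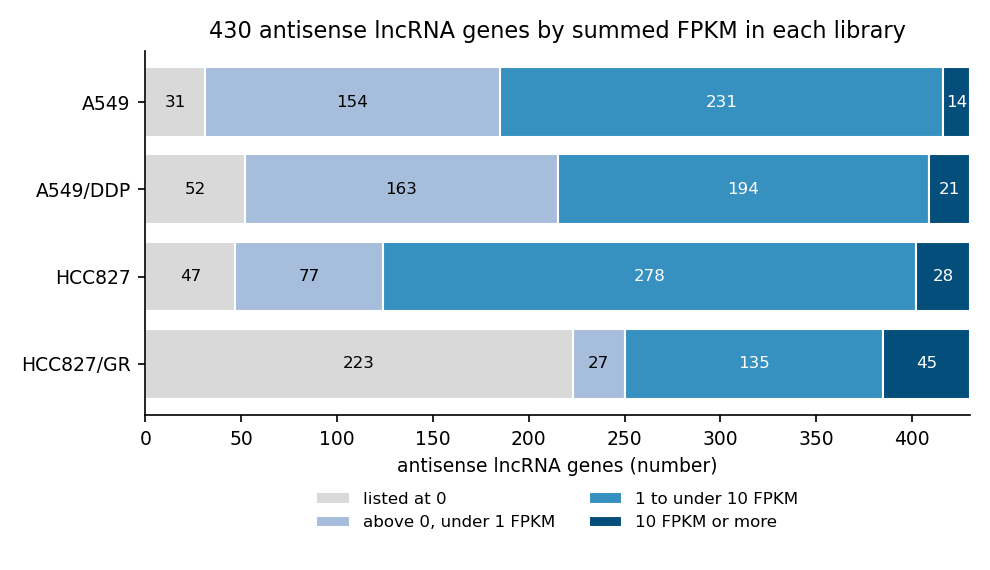
Each bar shows the 430 antisense lncRNA genes of 1 library (x axis, number of genes), split by summed FPKM. HCC827/GR has 223 genes listed at 0 and 45 at 10 FPKM or more, whereas the other libraries have 31 to 52 at 0 and 14 to 28 at 10 FPKM or more.

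The most abundant antisense RNAs were few. The 10 highest by mean took 29.6% of the summed FPKM of all 430 in A549, and 34.2%, 25.1% and 24.2% in the following libraries. LRRC75A-AS1, named SNHG29 in RefSeq and known as a host of small nucleolar RNAs, had 81.4, 106, 136 and 48.8 FPKM, from 30 annotated transcripts. VIM-AS1, divergent from the gene of the intermediate filament vimentin, had 127, 149, 61.3 and 27.5 FPKM. Nearly all of it came from ENST00000605833, with 126.52 FPKM in A549 and 27.51 in HCC827/GR. VIM-AS1 was the highest antisense RNA in both A549 libraries, LRRC75A-AS1 in HCC827 and PXN-AS1 in HCC827/GR.

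OIP5-AS1, an RNA known for binding microRNAs and the RNA-binding protein HuR, had 28.5, 24.4, 39.2 and 12.1 FPKM. It rested on the most read pairs of these 10, from 1572 in HCC827/GR to 4089 in HCC827. MIF-AS1, beside the gene of a cytokine that inhibits macrophage migration, had 33.1, 21.6, 26.4 and 21.5 FPKM, and UGDH-AS1, beside the gene of UDP-glucose dehydrogenase, 18.3, 16.3, 28.4 and 17.6. HCC827/GR was the lowest library for OIP5-AS1 and MIF-AS1 and A549/DDP for UGDH-AS1. DNAJC9-AS1 had 19.1, 39.3, 24.6 and 35.6 FPKM and DENND5B-AS1 8.46, 12.3, 13.6 and 22.3, higher in the resistant library of each pair. GTF3C2-AS1 had 6.08, 7.11 and 7.40 FPKM in the first 3 libraries and 37.0 in HCC827/GR. NNT-AS1, whose sense gene encodes a mitochondrial proton pump that makes NADPH, had 13.5, 7.14, 10.6 and 24.4.

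Which transcript carried a gene often changed between libraries. Of 126 genes with several annotated transcripts and a value above 0 in every library, the same transcript was highest in A549 and A549/DDP in 65, in HCC827 and HCC827/GR in 69, and in all 4 libraries in 31. At NNT-AS1, ENST00000606697 had 11.5, 5.18, 0.0297 and 20.5 FPKM, while ENST00000513560 led in HCC827 with 7.19. SLC25A5-AS1, beside the gene of a mitochondrial ADP/ATP carrier, showed the smallest range of the genes above 1 FPKM throughout, with 1.78, 1.80, 1.84 and 1.81 FPKM.

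For the effect of resistance, each resistant library was compared with its parent. A gene was called higher or lower where the ratio of FPKM, with 1 FPKM added to each value, was at least 2 or at most 0.5, among genes at 1 FPKM or more in 1 of the libraries compared. Log2 changes below are on that scale, which understates changes of low genes and gives no bound where a gene is listed at 0. A compared gene listed at 0 in 1 library of the pair is always called, since its other value is 1 FPKM or more. Read pair ratios are per aligned base, each with a 95% interval from the exact conditional test of 2 Poisson counts, which describes counting error alone.

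In A549/DDP against A549, 19 of 282 genes were called higher, or 6.74%, beside 12.6% of all annotated lncRNA genes tested. Lower were 35, or 12.4%, beside 14.9%. The median log2 change was -0.13, beside -0.09 over all annotated lncRNA genes. With each library scaled to an equal sum over the lncRNA table, 20 were higher and 61 lower. This scaling multiplied A549 by 1.56 and A549/DDP by 1.46 against the same 1 FPKM, so these 2 counts do not follow from the shift between the libraries alone. Of the 19 higher genes 14 were above 0 in both libraries, and the read pair interval left out a ratio of 1 in 13 of these. Of the 35 lower genes the same held for 29 of 31.

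The largest increase in A549/DDP was that of FGD5-AS1, an RNA studied in several cancers. It had 0.583, 18.1, 21.5 and 0 FPKM. A549 and HCC827/GR were thus the low libraries, and the log2 change in A549/DDP was 3.59, with a read pair ratio of 40.3 (25.7 to 67.3). RNASEH1-AS1, divergent from the gene of an RNase that cuts RNA in RNA-DNA hybrids, had 0.666, 7.90, 4.04 and 0 FPKM, in the same pattern. SLC7A11-AS1, antisense to the gene of the cystine transporter that supplies cysteine for glutathione, went from 9.22 to 27.8 FPKM, a log2 change of 1.495 and a read pair ratio of 2.90 (2.42 to 3.48). PTPRG-AS1, antisense to a receptor tyrosine phosphatase, went from 0.549 to 3.22 FPKM. AGAP2-AS1 and ZNF674-AS1 were also among the 10 largest increases. ATP1B3-AS1, OCIAD1-AS1, ZBTB11-AS1 and ARHGAP5-AS1 completed them, all at or near 0 in A549 and at 1.76 to 3.20 FPKM in A549/DDP.

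Among the genes lower in A549/DDP, PITPNA-AS1 had 10.3, 1e-06, 1.73 and 14.4 FPKM. PAPPA-AS1, in the gene of a metalloprotease that frees insulin-like growth factor from its binding proteins, went from 6.21 FPKM, or 219 read pairs, to a listed 0. COX10-AS1, whose start lies 46 bp from that of a gene needed to make heme A for cytochrome oxidase, had 6.82 and 0.561 FPKM, a log2 change of -2.32 and a read pair ratio of 0.0557 (0.0219 to 0.118). LPP-AS2, WDFY3-AS1, ZNF32-AS1, ERICH6-AS1, ARSD-AS1, CYP1B1-AS1 and HHIP-AS1 followed, with log2 changes from -1.68 to -1.42. The -1.68 was that of LPP-AS2, which went from 2.20 FPKM to a listed 0, so it gives no fold. ERICH6-AS1 had only 20.5 read pairs in A549, and HHIP-AS1 28.9. With unannotated transcripts of the symbol counted in, the calls of COX10-AS1, LPP-AS2, CYP1B1-AS1 and ERICH6-AS1 in A549/DDP ended, at log2 changes of -0.22, -0.22, 0.39 and 0.30, as did the higher call of PTPRG-AS1, at 0.88.

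In HCC827/GR against HCC827, 77 of 363 genes were called higher, or 21.2%, beside 24% of all annotated lncRNA genes, and 187 lower, or 51.5%, beside 54.1%. Of the 187 lower genes 163 were listed at 0 in HCC827/GR, where the rule of the call makes every compared gene lower. The median log2 change was -1.02, beside -1.07 over all annotated lncRNA genes. Among the 178 tested genes above 0 in both libraries, 55 were higher and 24 lower, or 30.9% and 13.5%, beside 34.1% and 14.9% of all annotated lncRNA genes above 0 in both, and the median log2 change was 0.44. The direction of the typical gene in this pair thus depended on whether genes listed at 0 were counted. Scaling to the median ratio of 445 annotated lncRNA genes at 1 FPKM or more in all 4 libraries shifted every log2 ratio of this pair by -0.25, and scaling to equal sums over the lncRNA table by -0.76. Calls made after the latter scaling, with the same 1 FPKM added and required, were 34 higher and 132 lower. The scaling also lowers the levels of both HCC827 libraries against that 1 FPKM, so these counts do not follow from the shift alone. The shifts for the A549 pair were -0.01 and -0.10.

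The largest increases in HCC827/GR included CFLAR-AS1, inside the gene of the caspase-8 inhibitor c-FLIP. It had 1.37, 1.19, 1.09 and 23.5 FPKM, with HCC827/GR alone high, and a read pair ratio of 20.04 (11.9 to 36.3). WDFY3-AS1, beside the gene of a protein that helps autophagy remove aggregates, had 2.97, 0.284, 0.638 and 18.3. SH3PXD2A-AS1, named after an invadopodia scaffold, had 0.0850, 0.140, 0.393 and 13.9 FPKM. PAX8-AS1, overlapping the gene of a thyroid and kidney transcription factor, had 0.512, 0.0395, 3.39 and 29.5. FLVCR1-AS1, beside a heme exporter gene, went from 0.162 to 7.01, and LIPE-AS1, at the hormone-sensitive lipase gene, from 1.39 to 14.5. ARNTL2-AS1, RUVBL1-AS1, ZNF528-AS1 and MRVI1-AS1 reached 6.84 to 14.3 FPKM in HCC827/GR and were listed at 0 in HCC827.

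The 10 largest decreases in HCC827/GR were all genes listed at 0 there. MYCBP2-AS1 had 9.14, 12.0 and 21.5 FPKM in the other 3 libraries, and FGD5-AS1 had 1138 read pairs in HCC827. MFI2-AS1, NCK1-AS1, EML2-AS1, ARAP1-AS1, TFAP2A-AS1, RNF219-AS1 and ARRDC1-AS1 had 7.02 to 9.16 FPKM in HCC827. The ARRDC1-AS1 log2 change was -0.42 with unannotated transcripts of its symbol counted in. The decreases that did not rest on a listed 0 were smaller in number. LRRC75A-AS1 had a read pair ratio of 0.361 (0.329 to 0.396), VIM-AS1 of 0.444 (0.393 to 0.5004) and OIP5-AS1 of 0.453 (0.427 to 0.480) in HCC827/GR against HCC827.

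For changes shared by the resistant lines, 215 genes could be compared in both pairs. Called higher in both were 3, or 1.40%, beside 3.13% of the annotated lncRNA genes compared, and lower in both were 14, or 6.51%, beside 6.86%. PXN-AS1 had 13.4, 28.8, 29.4 and 98.5 FPKM. A549/DDP and HCC827 were close, and each resistant library was above its parent, with read pair ratios of 2.32 (1.89 to 2.85) and 2.99 (2.67 to 3.36). The spliced transcript ENST00000539446 had the same order of libraries, with 4.90, 18.7, 28.9 and 74.6 FPKM. The single-exon ENST00000620336 had 4.25, 5.39, 0 and 22.8. AGAP2-AS1 had 0.216, 5.18, 3.16 and 7.71 FPKM, with read pair ratios of 22.4 (9.31 to 70.1) and 2.44 (1.87 to 3.22). ZNF674-AS1 had 0.00399, 3.59, 2.16 and 8.14, and its read pair ratio in HCC827/GR was 3.76 (2.91 to 4.92). Under scaling to equal lncRNA sums, with the same 1 FPKM added, none of the 3 stayed at 2-fold in HCC827/GR. The log2 changes there were 0.95, 0.37 and 0.77 for PXN-AS1, AGAP2-AS1 and ZNF674-AS1. That scaling lowers both HCC827 libraries against the 1 FPKM added, so these values do not follow from the shift between the libraries alone. With an unannotated single-exon transcript of its symbol counted in, ZNF674-AS1 changed by 0.997 in A549/DDP, just under the limit.

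Of the 14 genes lower in both resistant lines, 10 were listed at 0 in HCC827/GR. CYP1B1-AS1, near the gene of the cytochrome P450 that oxidises estrogens and aromatic hydrocarbons, was one of the 4 above 0 in every library. It had 6.17, 1.68, 14.9 and 2.39 FPKM, each resistant library below its parent, with read pair ratios of 0.170 (0.0909 to 0.296) and 0.174 (0.118 to 0.249). Its 15 annotated transcripts were joined by unannotated single-exon pieces under the same symbol on the other strand, and with these counted in, the log2 change in A549/DDP was 0.39 in place of -1.42. MAP3K14-AS1, at the gene of the NF-kappaB-inducing kinase, had 7.92, 3.39, 1.68 and 0.0418 FPKM. NAPA-AS1, at a vesicle fusion gene, had 2.16, 0.528, 1.70 and 0.0388, and PAXIP1-AS2 also remained above 0. WWTR1-AS1, beside the gene of the Hippo pathway coactivator TAZ, had 10.2, 3.28 and 1.63 FPKM and was listed at 0 in HCC827/GR. ARRDC3-AS1, ERICH6-AS1, FOXD3-AS1, P4HA2-AS1, PAPPA-AS1, SP2-AS1, TMEM9B-AS1, ZMYM4-AS1 and ZNF32-AS1 were the others listed at 0 there. SP2-AS1 was not lower in A549/DDP when its leading transcript alone was counted, with a log2 change of 0.0824. ERICH6-AS1 and TMEM9B-AS1 were not called lower there with unannotated transcripts counted in, at 0.30 and -0.75. MAP3K14-AS1 and NAPA-AS1 were just inside the limit in A549/DDP, with -1.02 and -1.05, and just outside it with the leading transcript alone, with -0.91 and -0.93.

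**Figure D3:**
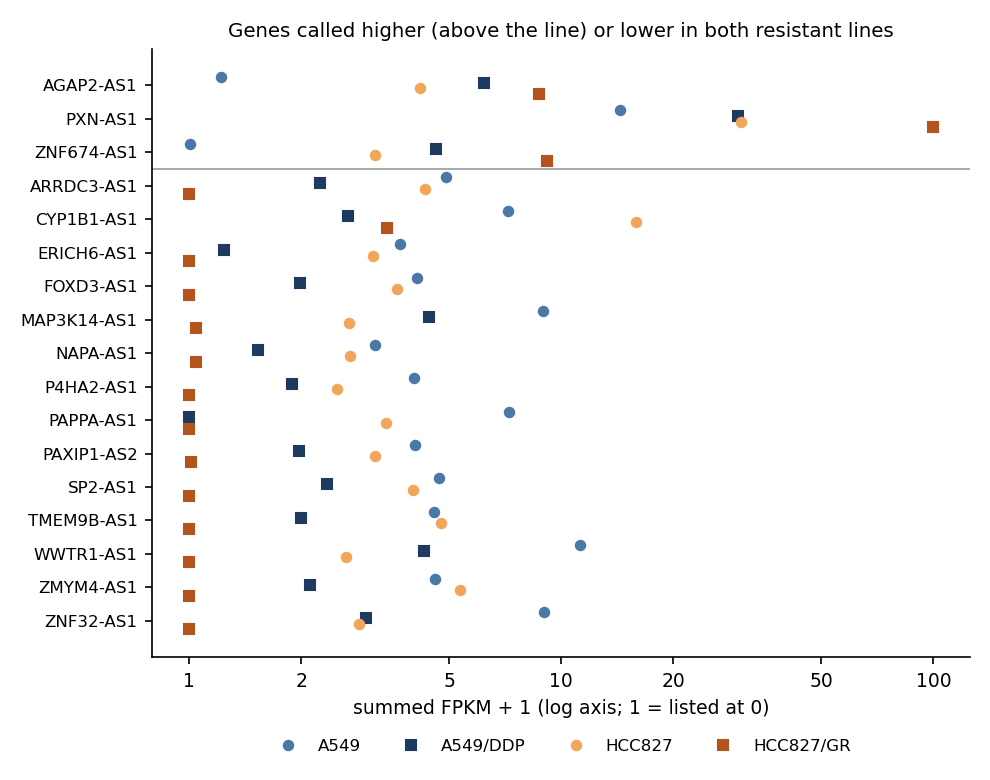
Points give the summed FPKM plus 1 (x axis, log scale) of the 17 antisense lncRNA genes (y axis) called the same way in both pairs, circles for parents and squares for resistant libraries. PXN-AS1 reaches 98.5 FPKM in HCC827/GR, and of the 14 genes below the line 10 are listed at 0 in that library.

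**Figure D4:**
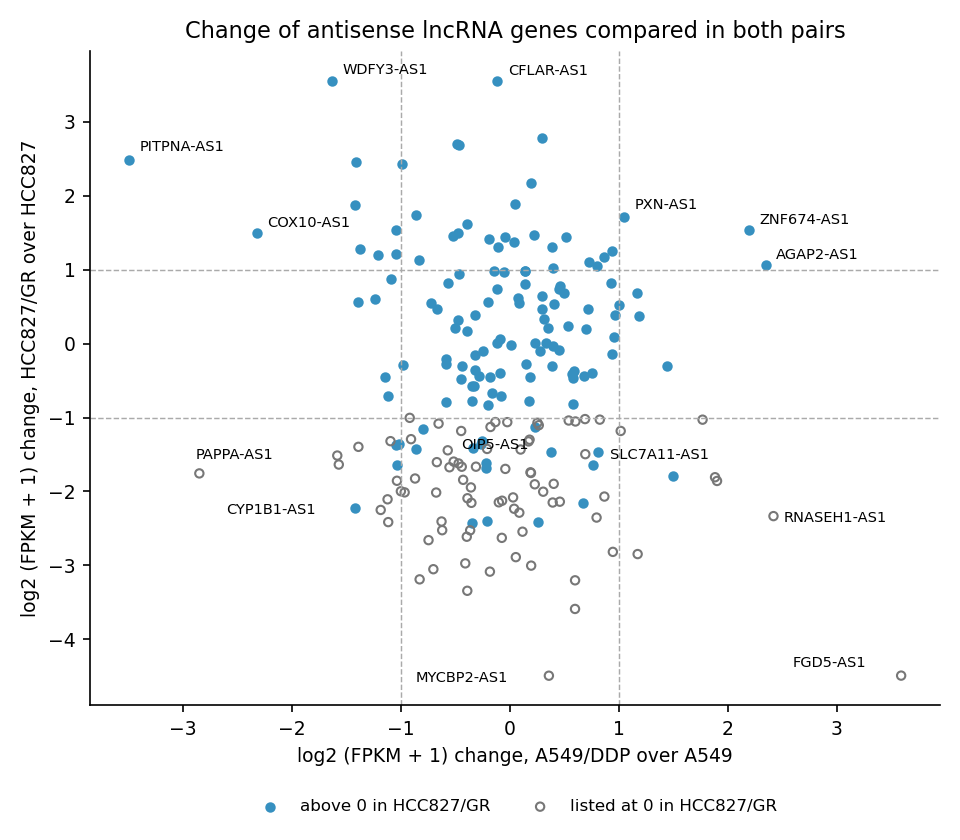
Each point is 1 of the 215 antisense lncRNA genes compared in both pairs, with the log2 change in A549/DDP on the x axis and in HCC827/GR on the y axis, and dashed lines at 2-fold. Open points, listed at 0 in HCC827/GR, lie below the lower line by construction, and 3 genes lie in the upper right corner.

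The pairs also differed between cell lines. FGD5-AS1, RNASEH1-AS1, SLC7A11-AS1, ATP1B3-AS1, OCIAD1-AS1, ZBTB11-AS1, TMCC1-AS1 and CCNT2-AS1 were called higher in A549/DDP and lower in HCC827/GR, 8 of the 215 genes, beside 5.51% of the annotated lncRNA genes compared. The reverse held for 9, beside 2.91%. Among these 9, COX10-AS1 had 6.82, 0.561, 5.86 and 18.4 FPKM, ARSD-AS1 8.08, 2.39, 6.84 and 27.7, and EAF1-AS1 11.6, 4.43, 4.39 and 11.4. At COX10-AS1 the spliced ENST00000602539 had 4.28, 0.561, 1.12 and 0 FPKM, whereas the single-exon ENST00000623598 had 2.54, 0, 4.74 and 18.4. With unannotated transcripts of the same symbol counted in, the COX10-AS1 log2 change was -0.37 in place of 1.496 in HCC827/GR and -0.22 in place of -2.32 in A549/DDP, so neither call held. LIPE-AS1 and TPT1-AS1 also turned there, to -0.50 and -0.72.

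The cell lines themselves were compared by asking for genes whose lower library in one line was at least 2-fold above the higher library of the other, again with 1 FPKM added. In the HCC827 line 15 of 430 genes were higher, or 3.49%, beside 4.12% of 3252 annotated lncRNA genes, and in the A549 line 20, or 4.65%, beside 3.47%. The counts were 2 and 54 with equal lncRNA sums, and 11 and 28 with the median ratio of shared genes. PRC1-AS1, in the gene of a mitotic spindle protein, had 0.672, 0.477, 16.3 and 10.0 FPKM. AFAP1-AS1, named after an actin filament protein and widely studied in lung cancer, had 0.739, 0.495, 4.31 and 30.4 FPKM, with 3039 read pairs in HCC827/GR. EGFR-AS1, inside the gene of the receptor that gefitinib inhibits, had 1.19, 1.89, 7.03 and 15.3. ELFN1-AS1 was listed at 0 in both A549 libraries and had 3.22 and 13.1 FPKM in the HCC827 line. FZD10-AS1, PAX8-AS1, NIFK-AS1, DNAH17-AS1, MID1IP1-AS1 and EXOC3-AS1 made up the 10 widest gaps. Without HCC827/GR, 72 of 392 genes were higher in HCC827 than in both A549 libraries, beside 24.7% of all annotated lncRNA genes.

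Higher in the A549 line were PRKCQ-AS1, at the gene of protein kinase C theta, with 3.64 and 6.86 FPKM in the A549 libraries and 0 in both HCC827 libraries, and THUMPD3-AS1, with 5.10, 5.16, 0.329 and 0.0364. ZBED5-AS1 had 8.99, 8.10, 1.09 and 0 FPKM. VCAN-AS1, in the gene of the matrix proteoglycan versican, had 10.00, 7.06, 1.27 and 0. SMAD1-AS1, SUCLG2-AS1, C1RL-AS1, ATP6V0E2-AS1, TP73-AS1 and LENG8-AS1 completed the widest gaps in this direction. Of the 20 genes, 14 were listed at 0 in HCC827/GR and 6 were above 0 in every library.

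Groups of antisense genes were described by lists. Of 53 antisense RNAs listed for links to cancer, 36 were among the 430 genes. In A549/DDP 3 of 27 tested were higher and 2 lower, with a median log2 change of 0.17, and in HCC827/GR 7 of 33 were higher and 17 lower, 12 of these listed at 0, with a median of -1.03. FEZF1-AS1 was listed at 0 in both A549 libraries and reached 0.287 and 3.50 FPKM in the HCC827 libraries. TPT1-AS1 had 9.04, 12.1, 1.99 and 6.41, NNT-AS1 changed by 1.14 on the log2 scale in HCC827/GR, or 0.66 from bases per mean transcript length, and ZEB1-AS1, divergent from the gene of a repressor of epithelial genes, had 2.17, 0.914, 3.26 and 5.26. SBF2-AS1 had 4.03, 4.53, 5.15 and 11.2 FPKM.

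By the role of the sense gene, 35 antisense genes of transcription factors were the largest list. The lists are partial, and TFAP2A-AS1, ARNTL2-AS1 and SMAD1-AS1, for example, are not in this one. In A549/DDP 2 of 21 tested were higher and 3 lower, and in HCC827/GR 8 of 28 were higher and 16 lower, 14 of these listed at 0. NR2F2-AS1, beside the gene of the nuclear receptor COUP-TFII, had 0.728, 0.737, 2.58 and 16.5 FPKM, and GATA2-AS1, divergent from a haematopoietic transcription factor gene, 0.543, 0, 1.85 and 8.91. Of the genes of adhesion and cytoskeleton, 3 of 9 were higher and 1 lower in A549/DDP. In HCC827/GR 3 of 11 were higher and 6 lower. The 3 higher in A549/DDP were PXN-AS1, FGD5-AS1 and ARHGAP5-AS1. The lists go by name, and the coding starts nearest to PXN-AS1 and FGD5-AS1 were those of RPLP0 and NR2C2. Of the genes of metabolism and mitochondria, 2 of 12 were higher and 3 lower in A549/DDP. In HCC827/GR 2 of 15 were higher and 11 lower, 7 of the 11 listed at 0. SLC16A1-AS1, at the gene of the lactate transporter MCT1, had 1.38, 0.990, 9.39 and 3.19 FPKM, but its read pair ratio in HCC827/GR was 1.08 (0.943 to 1.24). Of those of RNA and chromatin proteins, none of 11 was called in A549/DDP, and 2 of 13 were higher and 5 lower in HCC827/GR. Of those of ubiquitin and trafficking, 2 of 10 were lower in A549/DDP and none higher, and in HCC827/GR 1 of 12 was higher and 3 lower. The background shares are those given for each pair above.

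CircRNAs, closed RNA circles joined by back-splicing of the exons of a host gene, gave a second readout at the loci of the sense genes. Linear RNA of the sense genes was not compared, so circRNA counts are not taken as levels of the sense mRNA. Of the 430 antisense genes, 98 had a sense gene that hosted circRNAs, 96 sense genes in all, since HIF1A and PAPPA each have a pair of antisense genes. CircRNA ratios are of estimated counts scaled to the total counts of each library, from 1587755 in HCC827/GR to 2098414 in HCC827, with the same kind of interval. Directions below were compared with 3 counts added in each library, for sense genes with 10 counts or more over the pair. In A549/DDP against A549, the antisense RNA and the circRNAs of its sense gene differed from the parent in the same direction in 43 of 68 cases and in the opposite direction in 25. Across these genes Pearson's r was 0.41, and across the 83 genes of the HCC827 pair, with 47 in the same and 36 in the opposite direction, it was 0.12. The points share libraries, so these values only describe them. Of the 98 antisense genes, 47 were listed at 0 in HCC827/GR, beside 6, 8 and 8 in the others. Those of the 47 that were compared in the HCC827 pair are lower there by construction. Of the 96 sense genes, 13 were listed at 0 in HCC827/GR and at most 1 in any other library, beside 332 of all 2279 host genes, or 14.6%, in HCC827/GR.

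At SLC7A11, the antisense RNA in FPKM and the circRNA had the same order of libraries. SLC7A11-AS1 had 9.22, 27.8, 7.58 and 1.49 FPKM, and the circRNA of SLC7A11 had 716, 1675, 697 and 135 counts, highest in A549/DDP and lowest in HCC827/GR in both cases. The circRNA ratio was 2.10 (1.92 to 2.30) in A549/DDP and 0.256 (0.211 to 0.308) in HCC827/GR. In read pairs SLC7A11-AS1 was 0.551 (0.432 to 0.701) of its parent in HCC827/GR, a smaller difference than in FPKM. Its read pairs were 163, 503, 218 and 102, highest and lowest in the same libraries. The short ENST00000514752, with 5.49 FPKM in HCC827, was listed at 0 there, while the longer ENST00000510767 had 1.77 and 1.49.

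EGFR-AS1 and the circRNA of EGFR also shared their order. EGFR-AS1 had 1.19, 1.89, 7.03 and 15.3 FPKM and the EGFR circRNA 136, 190, 814 and 1185 counts, low in the A549 line and high in the HCC827 line. In HCC827/GR the ratios were 2.17 (1.90 to 2.48) for EGFR-AS1 in read pairs and 1.92 (1.76 to 2.11) for the circRNA. At PAPPA, PAPPA-AS1 had 6.21, 0, 2.38 and 0 FPKM, PAPPA-AS2 2.60, 1.28, 0.316 and 0, and the 9 circRNAs of PAPPA 12627, 5487, 601 and 213 counts. The circRNAs were lower in each resistant library than in its parent, with ratios of 0.390 (0.378 to 0.403) and 0.468 (0.399 to 0.548). PAPPA-AS1 was lower in both pairs against a listed 0. PAPPA-AS2 changed by -0.66 on the log2 scale in A549/DDP, under 2-fold, and was under 1 FPKM in the HCC827 pair, so it was not compared there. GABPB1-AS1, beside the gene of a subunit of the ETS factor GABP, had 3.67, 7.51, 3.20 and 0 FPKM and its sense circRNA 86, 229, 184 and 0 counts. In read pairs GABPB1-AS1 was 1.39 (1.20 to 1.61) of its parent in A549/DDP, a smaller difference than in FPKM. In the A549 pair, EPB41L4A-AS1 had 5.30 and 1.40 FPKM and the EPB41L4A circRNAs 391 and 159 counts, both lower. In the HCC827 pair the antisense RNA went from 3.55 to 5.70 FPKM and the circRNAs from 92 to 2 counts.

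Other loci parted. VCAN-AS1 was listed at 0 in HCC827/GR, whereas VCAN circRNAs went from 276 counts in HCC827 to 6157 in HCC827/GR, a ratio of 29.5 (26.1 to 33.4), after 3848 and 3302 in the A549 libraries. With unannotated transcripts under the symbol VCAN-AS1 counted in, the sum changed by 4.31 on the log2 scale in HCC827/GR in place of -1.18. Whether those transcripts are RNA of VCAN-AS1 or of VCAN was not tested. FLVCR1-AS1 was higher in HCC827/GR, while FLVCR1 circRNAs had 908 counts in HCC827 and 152 in HCC827/GR, a ratio of 0.221 (0.185 to 0.263). SVIL-AS1, at the gene of the actin-binding protein supervillin, had 5.26 and 13.0 FPKM in the A549 pair, and the SVIL circRNA 120 and 53 counts. In the HCC827 pair both were higher in HCC827/GR, with 3.86 and 6.80 FPKM and 184 and 317 counts. Past 2-fold in both readouts, 16 loci of the HCC827 pair went the same way, 5 higher and 11 lower, and 10 went opposite ways. Of the 11 loci lower in both readouts, 9 had the antisense RNA listed at 0 in HCC827/GR and 5 the circRNAs.

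**Figure D5:**
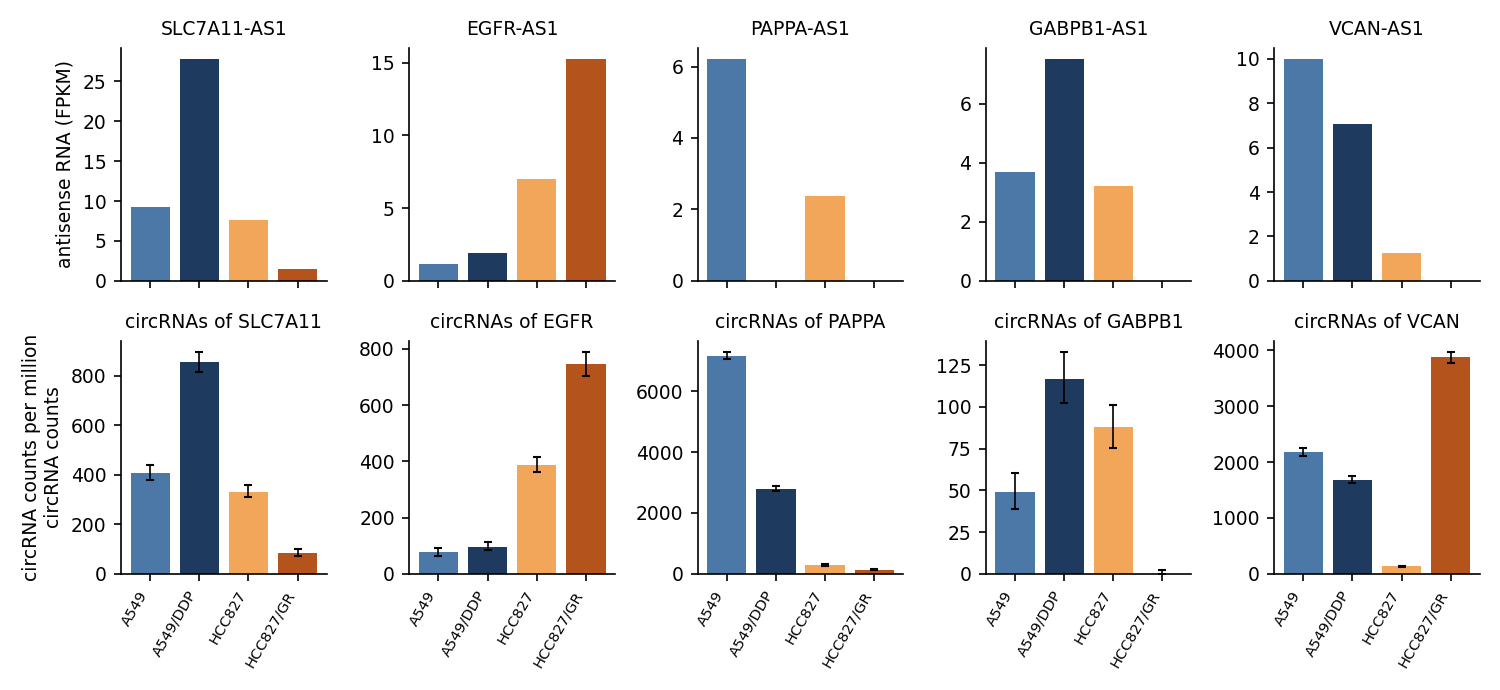
The upper bars give the FPKM of 5 antisense RNAs and the lower bars the counts of circRNAs of their sense genes, scaled to equal total circRNA counts (y axes), in the 4 libraries (x axis). Error bars are 95% exact Poisson intervals of the circRNA counts, counting error alone. SLC7A11 and EGFR show the same order of libraries above and below, and VCAN-AS1 is listed at 0 in HCC827/GR, where the VCAN circRNAs are highest, at 3878.

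In 6 antisense genes the lncRNA itself was a circRNA host, and they were singled out after their values were seen. CDR1-AS, known in brain as a circle that binds the microRNA miR-7 at many sites, had 329 circRNA counts in A549, 48 in A549/DDP and 0 in both HCC827 libraries. The ratio in A549/DDP was 0.131 (0.0947 to 0.178). The annotated transcript had the same ends as the circle, 140783176 and 140784660 on chromosome X in the deposited table, and 2.04, 1.02, 0 and 0 FPKM, so that reads of a circle and of a linear RNA cannot be told apart there. The mature miR-7-5p, from MIR7-1 in RefSeq, is printed with its seed, bases 2 to 8, in capitals, as the sequence to which the sites in CDR1-AS are known to pair.
hsa-miR-7-5p: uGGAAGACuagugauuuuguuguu

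CYP1B1-AS1 hosted a circle of 2 exons that ran from 38121985 to 38131614 on chromosome 2 in the deposited table. It had 22, 3, 714 and 179 counts, with ratios of 0.122 (0.0235 to 0.408) in A549/DDP and 0.331 (0.280 to 0.391) in HCC827/GR. The circle and the summed FPKM of CYP1B1-AS1 were both highest in HCC827 and lowest in A549/DDP, with A549 and HCC827/GR in reverse order between them. Reads of the circle and of linear RNA were not separated in that FPKM. TTN-AS1, antisense to the gene of the muscle protein titin, had a circle of 5 exons with 61, 83, 167 and 2 counts, whereas its FPKM was highest in HCC827/GR, at 5.11, 5.71, 7.64 and 16.1. The SUCLG2-AS1 circle had 19 and 57 counts in A549 and A549/DDP and none in the HCC827 line, where SUCLG2-AS1 had 0.223 and 0 FPKM. MSC-AS1 had 107, 51, 7 and 0 counts and PTOV1-AS1 at most 3.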

How the data were processed

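Total RNA without ribosomal RNA was sequenced from 4 cell lines, 1 library for each. According to the study's methods, reads were trimmed with Cutadapt, checked with FastQC, aligned with Bowtie 2 and TopHat2, assembled per library with StringTie and merged, and expression was estimated with StringTie and Ballgown. TopHat is also named in the submitters' notes. For tool versions, genome build, strand setting and circRNA caller the answer is the same, not given in the sources used here. In the deposited lncRNA table stand the authors' FPKM and mean coverage signal of each transcript, and the deposited circRNA table the authors' estimated counts and FPKM of each circRNA. Positions are those of the table, and RefSeq tables of GRCh38.p14 were used for names, starts and promoter sequences.

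FPKM was summed over annotated transcripts of a symbol. Coverage divided by FPKM gave the aligned bases of a library, and coverage times length over 302 bases, the commonest value on annotated single-exon transcripts, gave read pairs. Intervals cover counting error only, since reads carry no molecular identifiers. CircRNA counts were summed per host gene and rounded for intervals. Named are, per pair, the 10 largest increases and decreases, genes called in both pairs, the 10 highest by mean, the 10 widest gaps between lines in each direction, genes whose sense gene hosts circRNAs, PXN-AS1, CYP1B1-AS1 and PAPPA-AS1, members of fixed lists, and any others, such as the flattest gene, chosen after values were seen. Some items that the rule names are not reported here. The genes and lists were chosen with earlier results of these data known. Alternatives are given in the closing section. Computations ran in Python 3.11.15 (scipy 1.17.1, numpy 2.4.6, pandas 2.3.3), and plots were drawn with matplotlib 3.10.9.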

Additional observations from a re-analysis of the deposited data

Results flagged for a closer look

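In 17 antisense lncRNA genes the single resistant library of each line lay past 2-fold from its parent in opposite directions. The difference between the pairs was not tested, since each rests on 4 single libraries. The log2 change in A549/DDP minus that in HCC827/GR is given in brackets. It was positive in 8 genes, FGD5-AS1 (8.08), RNASEH1-AS1 (4.75), TMCC1-AS1 (4.02), ATP1B3-AS1 (3.76), OCIAD1-AS1 (3.69), SLC7A11-AS1 (3.28), ZBTB11-AS1 (2.80) and CCNT2-AS1 (2.20). It was negative in 9, PITPNA-AS1 (-5.99), WDFY3-AS1 (-5.19), USP46-AS1 (-3.87), COX10-AS1 (-3.82), ARSD-AS1 (-3.30), BACE1-AS (-2.66), AZIN1-AS1 (-2.59), EAF1-AS1 (-2.42) and ITGB2-AS1 (-2.26). A difference that includes a listed 0 depends on the 1 FPKM added and gives no fold. This holds for 7 of the 8 positive differences, all but that of SLC7A11-AS1, and for USP46-AS1 among the 9 negative ones. The other 9 of the 17 genes were above 0 in all 4 libraries. Among these, PITPNA-AS1, at 1e-06 FPKM in A549/DDP, and BACE1-AS, at 0.00184 FPKM in HCC827, were so close to 0 that the same limit applies. With all rows of the symbol, COX10-AS1 changed by -0.22 in A549/DDP and -0.37 in HCC827/GR, so the directions were no longer opposite, and USP46-AS1 changed by 0.90 in HCC827/GR, under 2-fold. With bases per mean length, SLC7A11-AS1 changed by -0.75 in HCC827/GR.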

How the results depend on the processing

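Counts of antisense genes called are given under each setting beside the main count. Higher in A549/DDP were 19. The count was 32 with all rows of a symbol, 40 with 0.1 FPKM added and 8 with a filter of 5 FPKM. Lower in A549/DDP were 35, with 62 at 0.1 FPKM, 12 at 5 FPKM and 61 under TPM of the lncRNA rows, rescaled to a common mean. Higher in HCC827/GR were 77, with 41 at 5 FPKM and 34 under TPM. Lower in HCC827/GR were 187, with 30 at 5 FPKM. Higher in both were 3, with 7 at 0.1 FPKM and 0 under TPM. Lower in both were 14, with 24 at 0.1 FPKM and 1 at 5 FPKM. The HCC827 line was higher in 15, with 38 at 0.1 FPKM, 2 under TPM and 33 with all rows. The A549 line was higher in 20, with 45 at 0.1 FPKM, 11 at 5 FPKM and 54 under TPM.

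Added after seeing the data, genes above 0 in all 4 libraries gave 8 higher and 17 lower in A549/DDP, 44 higher and 23 lower in HCC827/GR, 4 lower in both and 6 higher in the A549 line, and leaving out HCC827/GR gave 72 higher in HCC827. The filters test fewer genes by construction. The other causes were not tested. Without a filter, with the median ratio, with the leading transcript alone and with bases per mean length, all 8 counts stayed within 1.5-fold, as did all circRNA directions.

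Named changes in HCC827/GR turned with all rows of a symbol for COX10-AS1 (-0.37), LIPE-AS1 (-0.50), TPT1-AS1 (-0.72), UBE2Q1-AS1 (3.94) and VCAN-AS1 (4.31), and in A549/DDP for CYP1B1-AS1 (0.39) and ERICH6-AS1 (0.30). SP2-AS1 turned in A549/DDP with the leading transcript (0.0824) and SLC16A1-AS1 in HCC827/GR with bases per mean length (0.10). No paired analysis was possible because each condition had 1 library and the resistant lines differ in parent and, per the methods, in drug, so that they are not replicates of 1 treatment. With 1 library each, no replicate could be left out.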
